A study of Rattus norvegicus with 16 samples.

Results

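Cirbp encodes the cold-inducible RNA-binding protein, and its transcript was followed in rat pineal gland and retina at 2 hours of the day under 2 time scales. The array annotation gives the symbol Cirbp to 1 of 8740 probe sets without controls (AB000362_at), which makes it 1 of 4736 named genes. The probe set was found by that symbol, and the gene was chosen by its measured intensities, with the levels by tissue, hour and regime on all 16 arrays already known. Its levels and differences are therefore given as a description, with no p-value. Where the text says whether Cirbp passed a threshold, this only places it among all probe sets and is not a test of the gene.

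The protein carries an RNA recognition motif and a glycine-rich tail, and many mammalian cells make more of it when they are mildly cooled. In cultured mouse fibroblasts its abundance follows simulated body temperature cycles, and it binds transcripts of clock genes, Clock among them. For this reason it is often discussed as a link between body temperature and circadian gene expression.

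The samples are total RNA from rats, with no strain, age, sex or lighting schedule given in the labels. The pineal gland has 1 array each at CT12, CT6, ZT12 and ZT6, and the retina has 3 arrays for each of these. ZT (Zeitgeber time) conventionally counts hours from lights on, and CT (circadian time) counts hours of the internal clock without a light cycle. The retina arrays carry the numbers 1 to 3 in their titles, and nothing says whether they come from separate animals, so the spread between them may be technical. The pineal array titled ZT12 is described elsewhere in its labels as 6 h, and it was placed by its title. All 3 other pineal arrays name the eye and retina as their source, and the retina arrays numbered 3, together with the pineal ZT12 array, name brain and retina.

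The arrays fell into tissues as titled by the pineal marker list, while 1 retina array had low rod and ganglion cell means. The pineal enzyme Tph1, which starts serotonin synthesis, had a mean level of 14.33 on the pineal arrays, against 6.23 on the retina arrays (log2). The rod disc protein gene Prph2 had a mean level of 11.77 on the pineal arrays and 16.40 on the retina arrays. These are single examples. The mean of 6 genes on a pineal marker list was 11.71 to 12.52 on the pineal arrays and 6.88 to 8.70 on the retina arrays. Not every marker went the same way. Adrb1 of the pineal list was lower in the pineal gland, at 6.53 against 10.10. Of the rod markers, Pdc differed by only -0.21 (pineal minus retina, log2), and Gnb1 had probe sets at -3.66, 0.43 and 2.01. CT12 array 1 of the retina stood apart. Its median Spearman correlation with the other retina arrays was 0.837, against 0.944 to 0.962 for the rest. Its mean level of 6 rod genes was 12.07, whereas the other CT12 arrays had 15.02 and 15.42. This was below the pineal arrays, at 13.14 to 13.47. Its mean of 7 ganglion cell genes, 9.74, was also below the pineal arrays, at 9.85 to 10.09. The Cirbp differences between hours, regimes and tissues are given with and without this array.

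Cirbp lies on rat chromosome 7, from 10184515 to 10189623 on the minus strand in GRCr8, with 6 annotated transcripts in RefSeq. Its promoter is shown because the cold response of the mouse gene was traced to a short element there, TCCCCGCC, to which the factor Sp1 binds. The RefSeq window of 300 bases in GRCr8, chr7:10189426-10189725 on the minus strand, reaches from 250 bases before the start used for it to 50 after it. On this strand the gene as annotated begins at 10189623, which lies inside the window, before that start. Some of the letters before the start are therefore within the annotated gene, and distances hold for the start of this window only. The capitals mark the letters of that element.

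Cirbp promoter: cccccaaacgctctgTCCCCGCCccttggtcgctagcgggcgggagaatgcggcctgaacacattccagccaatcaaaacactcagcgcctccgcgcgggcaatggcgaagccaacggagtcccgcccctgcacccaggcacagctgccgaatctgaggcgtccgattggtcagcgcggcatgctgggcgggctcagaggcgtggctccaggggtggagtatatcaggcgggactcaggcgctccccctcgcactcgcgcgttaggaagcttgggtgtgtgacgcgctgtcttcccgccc

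The element occurs 1 time, starting 235 bases before the start used for this window, and 4.79% of 33469 rat promoter windows of this length hold it on either strand. The GC box GGGCGG occurs 5 times over both strands, 1 of them overlapping the cold response element, and 33.1% of windows hold at least 1. The CCAAT box CCAAT occurs 2 times, a motif present in 37.5% of windows. The clock E-box CACGTG, found in 6.42% of windows, and the heat shock motif GAANNTTC, found in 8.59%, have no match in these letters. A match is a description of the sequence and not a measured binding site.

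Under Zeitgeber time, the retina had less Cirbp transcript at hour 12 than at hour 6 on every array. Deposited linear intensities were 2016.9, 2313.1 and 4012 on ZT12 arrays 1 to 3, against 4666.9, 4981.4 and 6563.3 on ZT6 arrays 1 to 3. Every ZT12 array lay below every ZT6 array, and array 3 was the highest of its group at both hours. After quantile normalization of the 12 retina arrays, the level was 11.36 ± 0.49 at ZT12 and 12.35 ± 0.27 at ZT6 (log2 of the intensity plus 16, SD, n = 3 each). The difference was -0.99 ± 0.50 log2 units (standard error), which makes ZT6 1.98-fold higher.

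The separation of the ZT12 and ZT6 arrays was shared with many other transcripts. Of the 5244 probe sets past the filter on dim signals, 15.1% had every ZT12 array below every ZT6 array. In limma with Benjamini-Hochberg adjustment at 0.05, 15 probe sets passed (0.286%), and Cirbp was not among them. When 1 array was left out at a time, the difference stayed between -1.27 and -0.81, and it was -0.98 ± 0.32 without CT12 array 1. Without the arrays numbered 3 it was -1.11.

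Under circadian time, Cirbp was also lower at hour 12, and the size of the difference depended on 1 array. Deposited intensities were 628.4, 2782.6 and 2496.9 on CT12 arrays 1 to 3, against 2673.3, 4217.6 and 6396.6 on CT6 arrays 1 to 3. CT12 array 1 was far below all other retina arrays, and CT12 array 2 lay slightly above CT6 array 1, so the groups overlapped. The level was 10.77 ± 1.08 at CT12 and 11.99 ± 0.62 at CT6 (log2, SD, n = 3 each), a difference of -1.22 ± 0.50. Without CT12 array 1 the difference was -0.60 ± 0.36. With Cirbp not among them, 2 probe sets passed (0.0381%), and 15.9% had every CT12 array below every CT6 array.

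**Figure D1:**
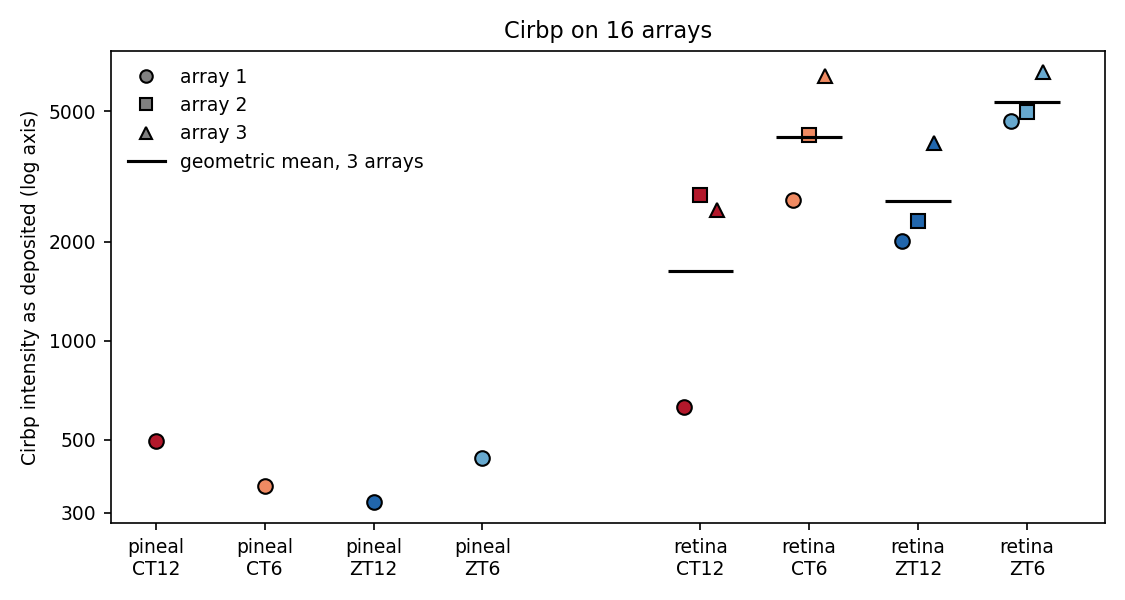
Deposited Cirbp intensity (log axis) on each of the 16 arrays, by tissue and condition, with symbols for the array number in the title (the single pineal arrays as circles) and a bar at the geometric mean of each retina group. The 4 pineal arrays lie between 324.4 and 497.5, below all 12 retina arrays, and CT12 array 1 at 628.4 is the lowest retina array.

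Over both regimes, the 6 retina arrays at hour 12 had a mean level of 11.06 ± 0.82 and the 6 at hour 6 had 12.17 ± 0.47 (log2, SD). The difference was -1.10 ± 0.35 log2 units, a level at hour 6 2.15-fold that at hour 12, and -0.79 ± 0.24 without CT12 array 1. The arrays of the 2 hours overlapped, because CT6 array 1 (11.36) lay below ZT12 array 3 (11.92) and CT12 array 2 (11.50). Of all probe sets tested, 0.21% passed in limma, and Cirbp did not, while 1.11% had all arrays of hour 12 below all of hour 6. Between arrays of the same number, hour 12 was lower in each case, with differences of -1.14, -1.09 and -0.73 log2 units under ZT and of -1.83, -0.51 and -1.32 under CT. For Cirbp, array 1 was the lowest of its group in all 4 retina groups, and array 3 was the highest in all but CT12. Over all probe sets the numbers showed no common pairing, which cannot exclude a batch shared by number. The values above are therefore given as differences between single arrays and not as pairs.

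The regime made less difference to Cirbp than the hour did in these group means, and the contrast between the 2 was not tested. At hour 6 the level was 11.99 ± 0.62 under CT and 12.35 ± 0.27 under ZT, a difference of -0.36 ± 0.50, with overlapping arrays. It was -0.05 without CT6 array 1, -0.66 without CT6 array 3 and -0.21 without ZT6 array 3. In limma 0 probe sets passed this comparison (0%), 266 had an unadjusted p under 0.05, and 9.23% had every CT6 array below every ZT6 array. At hour 12 the level was 10.77 ± 1.08 under CT and 11.36 ± 0.49 under ZT, a difference of -0.59 ± 0.50, also with overlap. Without CT12 array 1 it was 0.024 ± 0.36, without CT12 array 2 it was -0.97 and without ZT12 array 3 it was -0.31. In that comparison 0.61% of probe sets passed, and Cirbp did not, while 16.1% had every CT12 array below every ZT12 array.

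Ordered by mean level, the retina groups ran from CT12 (10.77) through ZT12 (11.36) and CT6 (11.99) to ZT6 (12.35). Each neighbouring pair in this order overlapped between arrays. Without array 1, the other CT12 arrays had a mean of 11.38 ± 0.16 (SD, n = 2), next to that of ZT12.

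**Figure D2:**
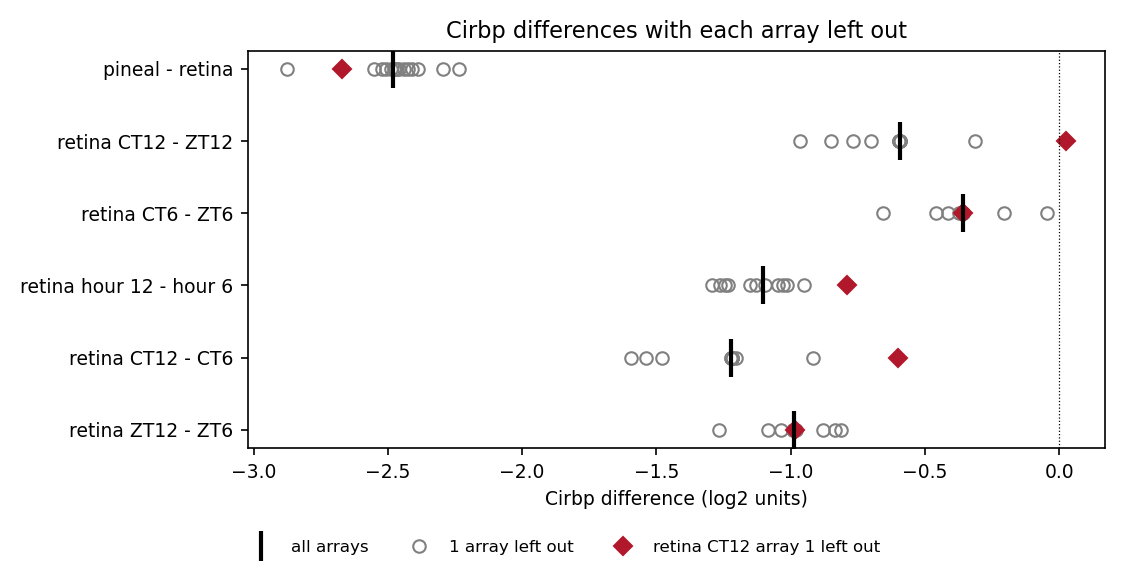
Difference in Cirbp level (log2 units) for 6 comparisons, with a bar for all arrays, open circles for each fit with 1 array left out, and a red diamond for the fit without CT12 array 1. The differences between hours stay below 0, while CT12 minus ZT12 moves to 0.024 without that array.

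Marker genes of the cell types in and around the retina were read on the same arrays. A list mean here is the mean log2 level of the measured genes, 1 probe set each, and no deposited value was 0. The list of 12 measured lens genes (of 19 symbols) had means of 15.01 to 16.94 at CT12, against 10.91 to 14.77 at CT6, and of 13.77 to 15.69 at ZT12, against 11.17 to 14.33 at ZT6. The 6 measured rod genes (of 11) had means of 12.07 to 15.42 at CT12, against 15.51 to 15.67 at CT6, and of 15.24 to 15.38 at ZT12, against 15.48 to 15.79 at ZT6. The 7 measured ganglion cell genes (of 8) ranged from 9.74 to 12.49 at CT12, against 12.63 to 12.96 at CT6, and from 12.68 to 12.86 at ZT12, against 12.65 to 12.96 at ZT6. The 6 measured immune genes (of 8) ranged from 9.41 to 10.88 at CT12, against 8.80 to 9.71 at CT6, and from 9.31 to 9.85 at ZT12, against 9.37 to 9.65 at ZT6. The 3 measured blood genes (of 6) ranged from 13.54 to 14.06 at CT12, against 12.94 to 14.40 at CT6, and from 12.30 to 12.87 at ZT12, against 12.99 to 13.48 at ZT6. The 2 measured pigment epithelium genes (of 7) ranged from 12.32 to 13.48 at CT12, against 11.28 to 12.86 at CT6, and from 10.71 to 11.89 at ZT12, against 10.47 to 11.91 at ZT6. The 4 measured genes of Muller glia and astrocytes (of 6) ranged from 12.43 to 13.40 at CT12, against 13.15 to 13.54 at CT6, and from 13.45 to 13.48 at ZT12, against 13.15 to 13.51 at ZT6.

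Under ZT, the rod and blood means of all ZT12 arrays were below those of all ZT6 arrays, while the lens, ganglion cell, immune, pigment epithelium and glial means overlapped. Under CT, the lens means of all CT12 arrays were above those of all CT6 arrays, the rod and ganglion cell means were below, and the others overlapped. At hour 12 the pigment epithelium and blood means of all CT12 arrays were above those of all ZT12 arrays, the ganglion cell and glial means were below, and the others overlapped. Such separation was common among single probe sets. Of these, 15.1% were wholly lower at ZT12 than at ZT6, 15.9% at CT12 than at CT6 and 16.1% at CT12 than at ZT12. The share wholly higher was not counted, nor was a share for list means. The part of the marked cell types in the Cirbp differences was not tested. In whole tissue, fewer cells of a type and less RNA per cell cannot be told apart.

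**Figure D3:**
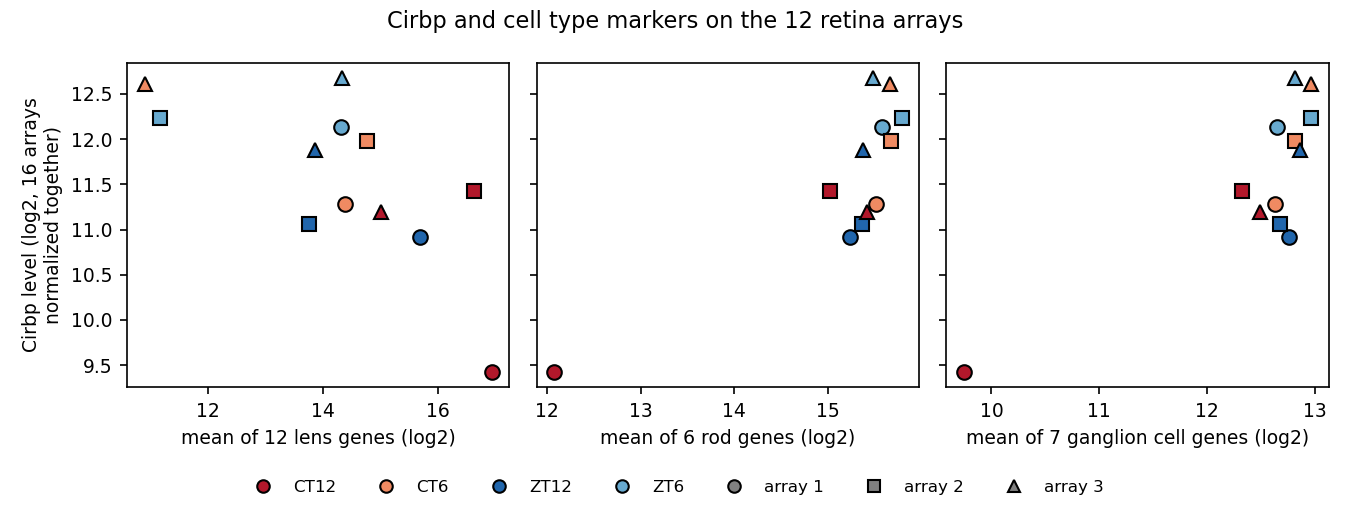
Cirbp level against the mean of the lens, rod and ganglion cell genes on each of the 12 retina arrays (log2, 16 arrays normalized together), with colours for the condition and symbols for the array number. CT12 array 1 has the lowest rod mean (12.07), the lowest ganglion cell mean (9.74) and the lowest Cirbp level (9.42). Its lens mean (16.94) is the highest but is near that of CT12 array 2 (16.63), where Cirbp is at 11.43.

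The pineal gland had much less Cirbp transcript than the retina. Deposited intensities in the pineal gland were 497.5 at CT12, 361.1 at CT6, 324.4 at ZT12 and 440.9 at ZT6, against 628.4 on the lowest retina array and 2016.9 on the next lowest. As deposited, every pineal array was below every retina array. With all 16 arrays quantile normalized, the pineal CT12 array (9.43) and retina CT12 array 1 (9.42) were at the same level, and the other pineal arrays were below all retina arrays. On these normalized values, 24.4% of all probe sets tested had every pineal array below every retina array, and Cirbp was not among them. The share for the values as deposited is not given here. Ranked within each array, Cirbp stood between the percentiles 39.3 and 48.5 in the pineal gland. It stood at percentile 48.4 on CT12 array 1 of the retina and between 70.8 and 88.4 on the rest of the retina arrays.

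The mean level was 9.09 ± 0.27 in the pineal gland (SD, n = 4 conditions) and 11.57 ± 0.90 in the retina (SD, n = 12 arrays). The difference was -2.48 ± 0.38 log2 units, which makes the retina 5.58-fold higher, and leaving out each array in turn gave -2.88 to -2.24. Without CT12 array 1 of the retina the difference was -2.67 ± 0.26. By condition the pineal array differed from the retina mean by -1.25 log2 units at CT12, -2.99 at CT6, -2.48 at ZT12 and -3.19 at ZT6. Without CT12 array 1 of the retina the CT12 value was -1.88. Cirbp passed the limma threshold in this comparison, as did 75.8% of all probe sets, with 2066 higher and 1911 lower in the pineal gland. With the values as deposited the split was 1621 higher and 2279 lower, and at a common median 2352 and 1737; the median of all probe sets was 0.09, -0.23 and 0.28 under the 3 scalings, and the Cirbp difference was -2.92 as deposited and -2.42 at a common median. The pineal level was close to the filter limit of 8.82, and no detection calls were analysed here, so the fold is uncertain in size.

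Within the pineal gland, Cirbp differed between hours in opposite directions under the 2 regimes. As deposited, the level was 8.41 at ZT12 and 8.84 at ZT6, a difference of -0.42 log2 units. It was 9.0 at CT12 and 8.56 at CT6, a difference of 0.45. There was 1 array per condition and hence no test. Among the 5244 brighter probe sets, 37.7% differed at least as much between ZT12 and ZT6 and 34.5% between CT12 and CT6. The 682 probe sets within 0.25 log2 units of the pineal level of Cirbp had median absolute differences of 0.52 and 0.44, so values of the size of Cirbp's were common at this level. The hour of the ZT12 array is also the one on which its labels disagree.

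No gene related to Cirbp by function was called between hours or regimes in the retina, where few probe sets of any kind were called. They came from 5 lists, of cold-shock domain and glycine-rich RNA-binding proteins, hnRNP and splicing factors, heat shock genes, clock genes, and regulators, partners and reported targets of Cirbp. Of their symbols 56 had a probe set and 52 genes passed the filter; Rbm3, the other well-known cold-induced RNA-binding gene, and Clock had none and were not analysed here. In limma 0 of the 52 genes passed in any of the 5 retina comparisons. Of all probe sets, between 0% and 0.61% passed in them, so 0 calls among 52 genes do not set these genes apart. An unadjusted p under 0.05 was reached by 3 genes at ZT12 against ZT6, 15 at CT12 against CT6, 1 at CT6 against ZT6, 12 at CT12 against ZT12 and 10 between hours over both regimes. These are 5.77%, 28.8%, 1.92%, 23.1% and 19.2% of the list genes, beside 8.62%, 27.4%, 5.07%, 26.2% and 17.6% of all probe sets.

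The median difference of these 52 genes was -0.06 log2 units at ZT12 against ZT6 and -0.24 at CT12 against CT6, beside -0.02 and -0.06 over all probe sets. Without CT12 array 1, the list median at CT12 against CT6 was -0.06, beside -0.05 over all probe sets. The calls depended on single CT12 arrays. Without CT12 array 1, the clock nuclear receptor gene Rorb passed as higher at ZT12 than at ZT6, by 1.22 ± 0.23 (adjusted p = 0.0383, limma), as 1.51% of all probe sets passed in either direction. Without CT12 array 3, 14 list genes passed at CT12 against CT6 and 12 at CT12 against ZT12, where 24.9% and 20.4% of all probe sets passed.

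The genes of the cold-shock list, all 4 of those measured, gave small values next to Cirbp between hours under ZT. The Y-box protein genes Ybx1 and Ybx3, whose products bind mRNA through a cold-shock domain, differed by -0.16 ± 0.27 and 0.07 ± 0.14 log2 units at ZT12 against ZT6. Rbmx, an hnRNP of the same RNA recognition motif family as Cirbp, differed by 0.09 ± 0.30, and the neuronal cold-shock domain gene Csdc2 by -0.10 ± 0.45. None of the 4 passed, and they are named as the whole of the measured list, after their values were seen. At CT12 against CT6 the values were 0.42 for Ybx1, -0.16 for Ybx3, -0.35 for Rbmx and -0.58 for Csdc2, and none passed there either. Without CT12 array 1 they were 0.13 for Ybx1, -0.06 for Ybx3, 0.07 for Rbmx and 0.09 for Csdc2, so that Rbmx and Csdc2 changed sign, and again none passed.

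Between tissues, most related genes differed, in both directions. Counted by the brightest probe set of each gene, 23 of 52 were higher and 18 lower in the pineal gland, which is 78.8% called and close to the 75.8% of all probe sets. As deposited the split was 20 higher and 22 lower, and at a common median 26 and 16. In the cold-shock list Csdc2 was lower in the pineal gland, at 7.46 ± 0.38, against 11.67 ± 0.63 in the retina (log2, SD, n = 4 and 12). Its pineal level lies below the filter limit, so it entered the test through its retina level and the size of its difference is uncertain. Ybx3 differed by -1.25 ± 0.14 and Rbmx by -0.99 ± 0.22, both lower in the pineal gland under all 3 scalings. Ybx1 was higher by 0.80 ± 0.17, but as deposited it did not pass, at 0.31 ± 0.15 (adjusted p = 0.0851, limma).

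Of 14 genes tested from the heat shock list, some of which cells induce on warming, 7 were higher and 5 lower in the pineal gland. That is 85.7% called, beside 75.8% of all probe sets. The mitochondrial chaperonin genes Hspd1 and Hspe1 were higher by 2.42 ± 0.11 and 2.88 ± 0.17 log2 units. Fkbp4, a co-chaperone of Hsp90, was lower, at -2.22 ± 0.14. In this list 2 genes had probe sets called both ways. Among them was Hsph1, an Hsp70 exchange factor gene, at 3.21 and -3.14, which gives no direction.

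Of 18 hnRNP and splicing factor genes, 10 were higher and 5 lower in the pineal gland, and 4 had probe sets called in both directions. The share called was 83.3%, beside 75.8% of all probe sets. Hnrnpab was higher by 2.24 ± 0.12 and Hnrnpa2b1, a splicing and RNA transport factor, by 1.85 ± 0.14. Celf2, a splicing regulator, was lower, at -4.50 ± 0.20, with a pineal level of 6.19 below the filter limit. Ptbp1, a splicing repressor, had probe sets at 1.55 and -5.05.

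Among 11 clock genes, 3 were higher and 2 lower in the pineal gland, against 2 and 5 as deposited. With the arrays quantile normalized, 45.5% of the clock genes were called and 6 did not pass, beside 75.8% of all probe sets called. The nuclear receptor Nr1d1, a repressor of Bmal1, was lower, at -1.65 ± 0.14, as was the output factor Tef, at -1.08 ± 0.14. The repressor Bhlhe41 was higher by 1.32 ± 0.17 and the receptor Nr1d2 by 1.04 ± 0.21. Of the regulators, partners and targets, Sp1 was lower, at -3.70 ± 0.34, with a pineal level of 6.40 that lies below the filter limit. The replication protein gene Rpa2, reported as a Cirbp target in human cells, was lower, at -2.34 ± 0.18, with a pineal level of 8.11 also below it. The kinase gene Gsk3b, whose product phosphorylates Cirbp, was higher by 1.43 ± 0.10, and Gsk3a was at -0.33 ± 0.09, which turned to 0.18 ± 0.09 at a common median.

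The retina genes whose pattern was most like that of Cirbp were found by Spearman correlation over the 12 retina arrays, among probe sets past the filter with 1 symbol. Phf20, a chromatin reader, had the highest value (0.951), then the exocyst subunit gene Exoc2 (0.937), the mitochondrial carrier gene Slc25a14 (0.923), the dendritic microtubule gene Map2 (0.923) and the neuronal calcium sensor gene Hpcal1 (0.909). The lowest values belonged to the cortactin gene Cttn (-0.895), the lysosomal sulfatase gene Arsb (-0.890), the kinase gene Akt1 (-0.881), the growth arrest gene Gadd45a (-0.874) and the cyclin gene Ccnd2 (-0.874).

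These correlations are descriptions over arrays that share their normalization and the low array CT12 1. On that array Map2 was at 6.36, against a CT6 mean of 10.24, and Slc25a14 at 7.60, against 11.48. Over the 11 arrays without it the 10 values were 0.88 to 0.94 and -0.86 to -0.84, but only 3 of the 10 genes stayed among the 10 most extreme. Other probe sets of the same genes gave weaker values in places. A further probe set of Exoc2 had 0.445 and one of Slc25a14 had 0.678.

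**Figure D4:**
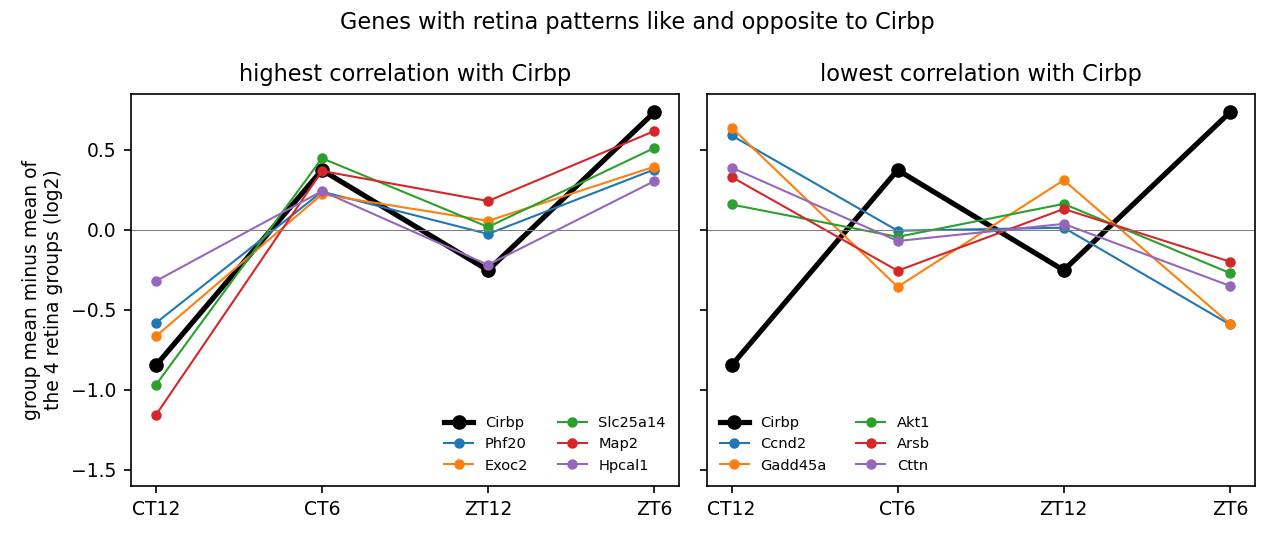
Group means of Cirbp (black) and of the genes most like (left) and most opposite to it (right) in the 4 retina groups, each centred on its own mean over the groups (log2 units). The genes on the left are lower at hour 12 than at hour 6 in both regimes, and those on the right are higher.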

How the data were processed

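The deposited values are linear intensities per probe set with nearly the same trimmed mean on every array (2503 to 2506 with 2% trimmed at each end); what the authors did to summarize, correct and scale them is not given in the sources used here. The 59 control probe sets among 8799 were left out. Gene symbols came from the platform annotation, and 6985 of the 7006 probe sets with 1 symbol have their gene in the RefSeq table of GRCr8. Precision rests on how many arrays each group has, since intensities carry no read depth.

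The 12 retina arrays, and all 16 for the tissue comparison, were quantile normalized and transformed as log2 of the intensity plus 16. Pineal arrays were compared with each other as deposited. A mean log2 level at or above the 40th percentile was required, leaving 5244 probe sets (lower limit 8.88 in the retina and 8.82 for 16 arrays); Cirbp passed both. Two-sided tests came from lmFit and eBayes of limma 3.58.1 under R 4.3.3 (Benjamini-Hochberg over the 5244 probe sets, threshold 0.05), with 4 retina groups in 1 fit (8 residual degrees of freedom) and with tissue and condition for 16 arrays (11 residual degrees of freedom). Errors on differences are standard errors of these fits. The procedure was tested on simulated data. Sequences were searched in Python 3.11.15 and figures drawn with matplotlib 3.10.9.

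The gene, the lists and the settings were chosen with earlier results of these data known. List genes were named up to 4 per list and comparison by smallest p among those that passed, on the brightest probe set of a gene; the cold-shock genes in the retina were named outside this rule. The genes most like Cirbp were the 5 highest and 5 lowest Spearman correlations. Title numbers showed no common pairing of the arrays over all probe sets. Deviations from the group means of same-numbered arrays correlated between -0.41 and 0.41, and 5 of 18 pairs were over 0.1. These values cannot exclude a batch shared by number.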

Additional observations from a re-analysis of the deposited data

Results flagged for a closer look

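The difference between hours in the pineal gland ran in opposite directions under the 2 regimes, with Cirbp higher at CT12 than at CT6 by 0.45 log2 units and lower at ZT12 than at ZT6 by -0.42. These differ by 0.87 log2 units. Each value compares 2 single arrays, the difference between them was not tested, and the labels of the ZT12 array give both 12 and 6 as its hour.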

How the results depend on the processing

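Across 119 alternative values of the Cirbp differences, 118 kept their sign, and these were within 1 SD (0.68 log2 units) of the value with all arrays. This SD is that of single arrays within the retina groups, and CT12 array 1 raised it. CT12 minus CT6 stayed inside it at -0.60 without that array, against -1.22. Many of the 119 values could hardly move, such as those with a replicate block or without an array outside the comparison. The exception in sign was CT12 minus ZT12 at 0.024 without CT12 array 1. Leaving out 1 array at a time gave -0.97 to 0.024 for CT12 minus ZT12. Cirbp passed in 0 of 20 alternatives in each retina comparison and in 23 of 23 between tissues. Since the gene was chosen by these same values, the counts are a description and not a test. The cause of the changes below was not tested. Numbers of probe sets called by limma changed as follows. ZT12 against ZT6 gave 9 as deposited, 6 with no filter, 0 without the arrays numbered 3 (312 at an unadjusted p under 0.05) and 1 to 79 with 1 array left out. CT12 against CT6 gave 5 with an offset of 1, 9 at a common median, 9 with the filter at the 60th percentile, 0 with no filter (1722 at an unadjusted p under 0.05), 1 without the arrays numbered 3, and 0 to 1306 with 1 left out. CT12 against ZT12 gave 21 as deposited, 73 at a common median, 3 with no filter, 21 at the 60th percentile, 8 with a replicate block on the title number, 1 without the arrays numbered 3 and 0 to 1072 with 1 left out. Hour 12 against hour 6 gave 7 with the block, 0 without the arrays numbered 3 (716 at an unadjusted p under 0.05) and 3 to 178 with 1 left out. CT6 against ZT6 gave 0 to 3 with 1 left out. With 1 array left out, list genes called numbered 0 to 1 at ZT12 against ZT6, 0 to 14 at CT12 against CT6, 0 to 12 at CT12 against ZT12 and 0 to 2 between hours. The highest counts came without CT12 array 1 for ZT12 against ZT6, without CT6 array 3 for CT6 against ZT6 and without CT12 array 3 for the rest of the retina comparisons. Of the 10 genes named for their pattern, 6 stayed as deposited, 3 without CT12 array 1, 2 over all 16 arrays and 3 with Pearson correlation. With 3 numbered arrays in every group the replicate block could not change a Cirbp difference (ZT12 minus ZT6 at -0.99); its standard error was 0.33 with the block and 0.50 without it, and 0.23 and 0.35 over both regimes, and Cirbp passed in neither. The block was not run between tissues, since the pineal arrays carry no number. The pineal level near the filter limit bounds what the tissue fold can show.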
